A study of Ovis aries with 2 samples.

Results

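Corticotrophs of the sheep anterior pituitary were chosen by measured transcript shares, as barcodes in which POMC, the precursor of ACTH, made up at least 1% of all unique molecular identifiers (UMIs, each standing for 1 captured transcript). Barcodes also had to hold at least 500 genes and 1000 UMIs, with PRL under 25%, GH under 10% and LHB under 0.3% of UMIs. In all, 161 of 29621 kept barcodes met the rule, 152 of them in the 3-month library and 9 in the 6-month library. The series profiled dissociated anterior lobes of Hu sheep aged 3 and 6 months, with 1 droplet library per age, no treatment and no genetic change named in the labels. Neither the sex nor the number of the animals is stated in the labels. Age and library cannot be told apart in this design, which allows no test, and all values below describe these libraries.

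Corticotrophs release ACTH, which drives glucocorticoid secretion by the adrenal cortex. The hypothalamic peptides CRH and vasopressin act on them through the receptors CRHR1 and AVPR1B, and glucocorticoids feed back through their nuclear receptor NR3C1. TBX19, a T-box factor, switches on POMC transcription, and the convertase PCSK1 cuts the POMC protein to ACTH. Melanotrophs of the intermediate lobe use the same precursor for other peptides and are marked by the transcription factor PAX7.

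In the 3-month library, 158 kept barcodes had POMC at 1% or more, and 6 of these were left out, 2 over the PRL limit and 4 over the LHB limit. The 152 barcodes that remained were 0.929% of 16368 kept barcodes (95% exact Clopper-Pearson interval 0.787 to 1.09, counting error only). Their POMC share ran from 1.04% to 32.0% with a median of 4.25%. The gate held 91.0% of all POMC UMIs in kept barcodes of that library. POMC was 0.00421% of UMIs in 2320 barcodes with endothelial markers, a cell type that should lack it. By definition these barcodes had POMC under 1%, so their summed level sets no upper limit on free RNA in single barcodes. The members were selected on POMC, PRL, GH and LHB, and the values of these 4 genes describe the choice. Every other ratio below sets the gate against the remaining barcodes of the same library and is likewise a description.

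**Figure D1:**
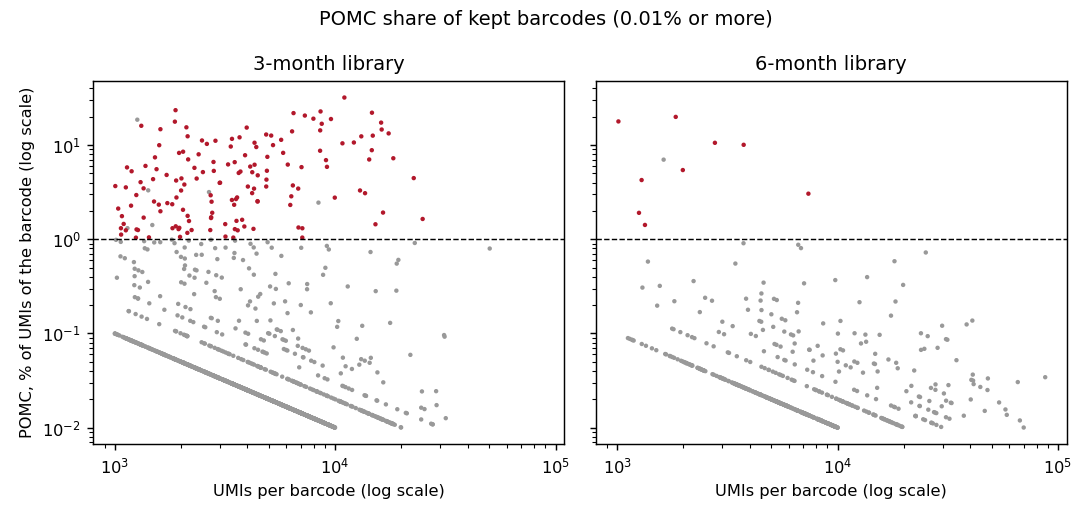
POMC share of each kept barcode (y axis, % of its UMIs, log scale) against its total UMIs (x axis, log scale) in the 3-month (left) and 6-month (right) library, for barcodes with at least 0.01%. Red points are the 152 and 9 gated barcodes, grey points all others shown, and the dashed line is the 1% cut; the diagonal grey rows are barcodes with 1, 2 or a few POMC UMIs.

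Gated barcodes of the 3-month library were shallower than the rest. They had a median of 3405 UMIs (1007 to 24949) and 1770.5 genes, against 5245 UMIs and 2011.5 genes in the 16216 other kept barcodes, and summed to 745825 UMIs. Scrublet, a doublet caller, marked 922 of the 16368 kept barcodes (5.63%) and 6 of the 152 gated ones, which were kept. The libraries held 142479651 and 175239612 UMIs in 18961 and 15031 barcodes, and 81 barcode sequences occurred in both.

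The 5 markers of corticotrophs that the rule did not use were all found in gated barcodes, at higher levels than over all other barcodes together. AVPR1B was near the limit of detection, and PCSK1 and NPPC were also found in other hormone gates. TBX19 had 192 UMIs, or 257 CPM (counts scaled to a common total of UMIs per group), in gated barcodes and 3.59 CPM in the other barcodes, a log2 ratio of 6.16 (95% exact binomial interval of the ratio 5.92 to 6.41). CRHR1 was at 113 and 0.451 CPM, a log2 ratio of 7.96 (7.48 to 8.46), on 84 and 63 UMIs. These intervals, and all intervals on ratios below, cover counting error only and treat UMIs as independent.

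PCSK1 was at 213 and 8.71 CPM (4.61, 4.37 to 4.85). NPPC, which encodes C-type natriuretic peptide, was at 996 and 42.2 CPM (4.56, 4.45 to 4.67). AVPR1B had 8 UMIs in 7 gated barcodes and 5 UMIs in all others, which puts it below the minimum level of 10 CPM (mean of both groups) set for measured genes. Of the 152 gated barcodes, 9 held none of these 5 markers, 36 held 1, 52 held 2, 40 held 3, 12 held 4 and 3 held all 5.

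Shares of barcodes with a UMI depend on depth, so each barcode was also thinned to 2000 UMIs, which left 110 of 152 gated, 13940 other and 1833 endothelial-marker barcodes. TBX19 was then found in 41.8% of gated barcodes (32.5 to 51.6), 0.395% of others and 0.0546% of endothelial-marker barcodes, whose median depth before thinning was 3086.5 UMIs. Without thinning, the share in gated barcodes was 61.2% (53.0 to 69.0) and in the others 1.95%. CRHR1 was found after thinning in 25.5% of gated barcodes (17.6 to 34.6) against 0.143% of others, PCSK1 in 26.4% against 1.02%, and NPPC in 65.5% against 6.55%. AVPR1B was found in 0 of 110 thinned gated barcodes, which allows a share of barcodes with a UMI of up to 2.73% (3 barcodes of the total).

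Hormones of other lineages were low in most gated barcodes. PRL had a median of 0.809% of UMIs over gated barcodes and 0.764% over the others, GH 0.103% and 0.0691%, and CGA, the shared alpha subunit of LH, FSH and TSH, 0.0879% and 0.0687%. Only 6 gated barcodes had PRL at 5% or more, 2 had GH at 1% or more and 2 had CGA at 1% or more. FSHB had 4 UMIs and TSHB 3 UMIs over all 152 barcodes. POU1F1, the factor of the lactotroph, somatotroph and thyrotroph lineages, was found in 3.95% of gated and 26.2% of other barcodes (2.73% and 13.2% after thinning to 2000 UMIs).

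Markers of non-endocrine cells were also found in part of the gate. Stem or folliculostellate markers (6 genes) summed to 126 CPM in gated and 477 CPM in other barcodes, endothelial markers (6 genes) to 166 and 293 CPM, fibroblast or mural markers (6 genes) to 115 and 167 CPM, and macrophage markers (5 genes) to 219 and 654 CPM. T or NK markers had 3 UMIs in the gate, B or plasma markers 4, and the red cell marker HBB 0. At least 3 UMIs of 1 of these classes were found in 27 gated barcodes, which had a median of 6261 UMIs, against 2995 UMIs in the other 125. These 27 included 5 of the 6 barcodes marked as doublets, and 19 of them held TBX19. Without them the log2 ratios of 94 of 128 single genes stayed within the counting interval and 34 moved outside it, and values without them stand beside the genes named below where the ratio moved by over 1.5 times or crossed 2-fold. The proliferation markers MKI67, TOP2A and CDK1 were found in 1 gated barcode, with 14 UMIs.

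Gated barcodes were close to each other in expression when hormone genes were left out. Distances were taken over 30 principal components of 3000 variable genes. The 7 hormone genes and genes with numbered RPS or RPL symbols (ribosomal proteins) were left out. They were dropped after each barcode had been scaled to its total over all genes. Hormone content therefore still affected the scale of the remaining genes. Of the 15 nearest neighbours of gated barcodes, 61.0% were themselves gated, a class that made up 0.929% of kept barcodes. The median gated barcode had 10 gated neighbours of 15, 112 had at least 8, and 10 had 0. Among these 10, 4 held TBX19, each with 1 UMI. Neighbours came rarely from barcodes gated on PRL at 25% or more (3.86%), GH at 10% or more (0.307%) or LHB at 0.3% or more (0.175%). These comparison gates held 2708, 1363 and 1393 barcodes of the 3-month library, each under the other limits of the rule.

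Barcodes on either side of the 1% cut shared several of these genes. Of the other barcodes, 57 had at least 8 gated neighbours, 34 of them held TBX19 and 21 held CRHR1, and their median POMC share was 0.475%. Just outside the cut, 37 barcodes with POMC at 0.5 to 1% had TBX19 at 194 CPM and CRHR1 at 110 CPM of UMIs without hormone genes. Just inside, 39 barcodes at 1 to 2% had 189 and 142 CPM. PIANP, a neural membrane protein gene, was at 371 and 487 CPM in these bins. After thinning to 1000 UMIs, TBX19 was found in 27.0% (13.8 to 44.1) and 20.5% (9.30 to 36.5) of them, and NPPC in 43.2% and 53.8%. CRHR1 was found in 5.41% (0.661 to 18.2) and 20.5% (9.30 to 36.5) of them, intervals that overlap. In 78 barcodes at 0.1 to 0.5% the thinned share for TBX19 was 6.41% (2.11 to 14.3), and in 9712 barcodes under 0.01% it was 0.124%.

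**Figure D2:**
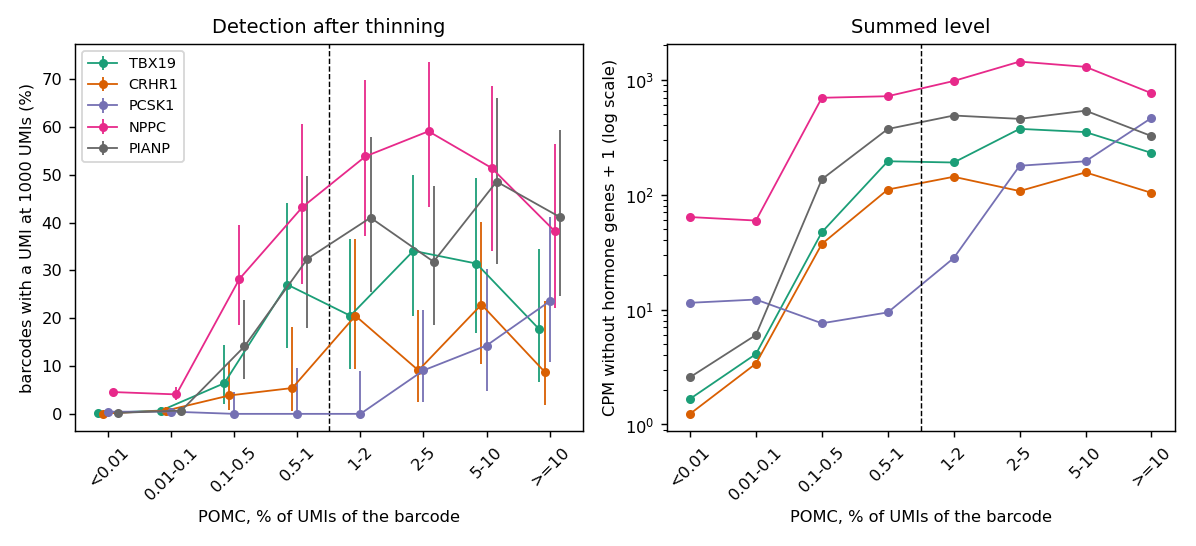
TBX19, CRHR1, PCSK1, NPPC and PIANP in 3-month barcodes binned by POMC share (x axis), within the limits on PRL, GH and LHB. Left, the share of barcodes with a UMI after thinning to 1000 UMIs, with 95% exact intervals; right, summed CPM of UMIs without hormone genes plus 1 (log scale). The dashed line is the 1% cut: TBX19 is at 194 CPM just below it and 189 CPM just above it, whereas PCSK1 goes from 27.1 CPM at 1 to 2% to 464 CPM at 10% and over.

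TBX19 transcripts were not limited to the gate. Of 410 kept 3-month barcodes with a TBX19 UMI, 93 (22.7%) were gated and 225 were in the PRL gate. The PRL-gated barcodes with TBX19 were deep, with a median of 28381 UMIs, and TBX19 was at 7.25 CPM over that gate against 257 CPM in POMC-gated barcodes. After thinning to 2000 UMIs it was found in 1.498% of PRL-gated barcodes (1.07 to 2.03), above the 0.0818% of LHB-gated and 0.0546% of endothelial-marker barcodes. POMC was at 27.0 CPM in the PRL gate and 42.1 CPM in endothelial-marker barcodes.

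PAX7 was found in 2 barcodes of the 3-month library, both of them gated, and in 0 of the 16216 others, which allows a share of up to 0.0185% by the same limit. They had 2 and 5 PAX7 UMIs, POMC shares of 32.0% and 18.9%, and 11016 and 9577 UMIs in all. The first has the highest POMC share in the gate. Each held 1 TBX19 UMI and no UMI of CRHR1, PCSK1, NPPC, PIANP or GFRA3. The dopamine receptor gene DRD2, which melanotrophs also express, had 4 and 3 UMIs in them, out of 11 in the whole gate. Only 4 and 3 of their 15 neighbours were gated. With 2 melanotroph markers detected they were given no cell type name, and PCSK2 was not analysed here. DRD2 is not particular to these 2 barcodes: without thinning it was found in 17.5% of other and 83.7% of PRL-gated barcodes.

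The genes farthest above the rest of the 3-month library, beside the markers, included GFRA3, PIANP and MBNL3. GFRA3, the co-receptor of artemin, had 166 CPM in gated and 0.479 CPM in other barcodes, a log2 ratio of 8.44 (7.998 to 8.89), and was found in 46.1% and 0.315% of barcodes. PIANP was at 400 and 2.08 CPM (7.58, 7.35 to 7.82) and was found in 67.1% and 1.25%. MBNL3, a muscleblind-like splicing regulator, was at 611 and 13.6 CPM (5.49, 5.34 to 5.64) and was found in 77.0% and 8.79%. After thinning to 2000 UMIs these genes were still found in 25.5%, 47.3% and 65.5% of gated barcodes, against 0.143%, 0.502% and 2.61% of the others.

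The further leading genes were RASEF (6.45), the ephrin receptor gene EPHA8 (6.26), the vesicle membrane protein gene SYNPR (5.92), the homeobox gene RHOXF1 (5.83) and FRZB, a secreted Wnt antagonist (5.51). SERPINF1 (4.88), SH3BGR (4.87) and CNTNAP5, of the neurexin family (4.86), completed the list of 15 beside POMC, TBX19, CRHR1 and NPPC. RHOXF1 was concentrated in a minority, with 201 UMIs in 34 of 152 barcodes. A gene without a name, LOC105616457, which was chosen after its values were seen, was at 833 and 26.3 CPM and was found in 86.2% and 12.1% of barcodes.

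Across the other hormone gates of the same library these genes differed in how far they were shared. GFRA3 was at most 0.122 CPM in the PRL, GH and LHB gates and had no UMI in 91 barcodes with TSHB at 0.05% or more. NPPC was at 113 CPM in LHB-gated barcodes, where it was found in 11.9% after thinning to 2000 UMIs. PCSK1 was higher in the TSHB gate, at 876 CPM, than in POMC-gated barcodes, at 213 CPM, and was found in 5.72% of LHB-gated barcodes after the same thinning. RHOXF1 was at 36.3 CPM in the GH gate, and PIANP at 18.4 CPM and MBNL3 at 41.4 CPM in the TSHB gate. The unnamed gene LOC105616457 was at 147 CPM in the GH gate and 131 CPM in the TSHB gate.

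**Figure D3:**
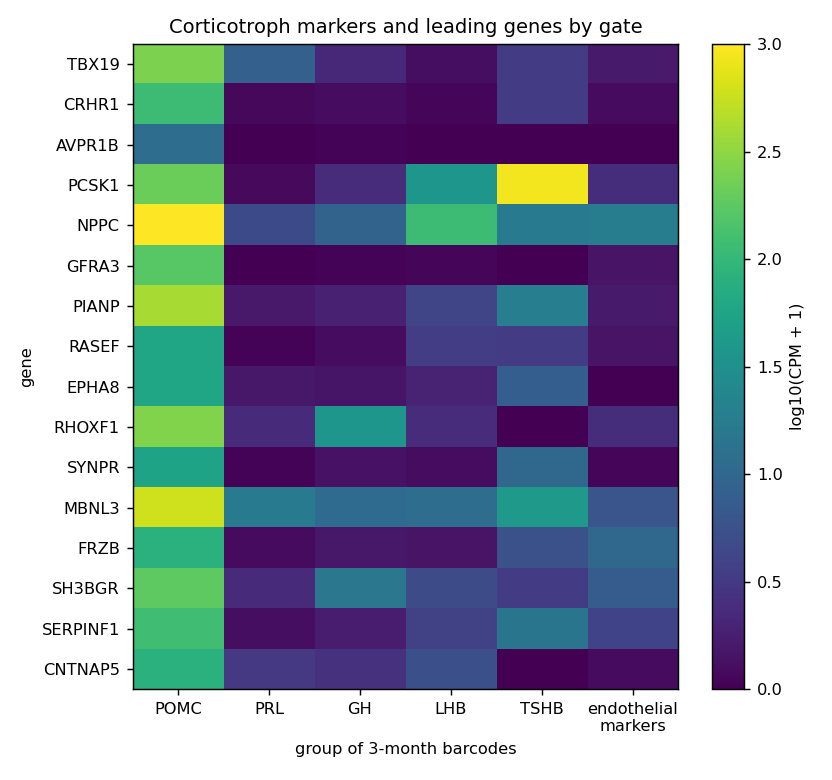
Level of 5 corticotroph markers and the other leading genes (rows) in 6 groups of 3-month barcodes (columns: the POMC, PRL, GH, LHB and TSHB gates and barcodes with endothelial markers), as log10(CPM + 1); the scale ends at 3. All rows but PCSK1 are highest in the POMC gate, and PCSK1 is highest in the TSHB gate (876 against 213 CPM).

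The genes that stood lowest in gated barcodes included hormones and receptors of the other endocrine lineages. GH, LHB and PRL, which the rule limits, led them, and GH has near-identical relatives from which its counts could not be separated. CGA was at 1220 CPM in gated and 21146 CPM in other barcodes (-4.12, -4.21 to -4.02). MSMB (2 UMIs; -5.82, -8.86 to -3.96), the galanin gene GAL (2 UMIs; -5.72, -8.77 to -3.87) and FSHB (4 UMIs; -5.10, -6.97 to -3.74) followed. BST1, an ectoenzyme gene at 383 CPM in the LHB gate, had 0 UMIs in gated barcodes and was at least 12.2-fold lower, against a floor of 3 counts over the gate. TSHB (-4.84), SPP1, which encodes osteopontin (-4.61), RPRML (-4.93), IGFBP2 (-3.11), the GHRH receptor gene GHRHR (1 UMI; -5.17, -10.47 to -2.69), versican VCAN (1 UMI; -5.11, -10.41 to -2.63) and MGP (-3.62), highest in endothelial-marker barcodes at 384 CPM, completed the 15. Without the 27 barcodes IGFBP2 was at -4.21, and GHRHR and VCAN had 0 UMIs.

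Of 9101 measured genes, 2345 (25.8%) had a CPM in gated barcodes of 2-fold or more that in the others, and 623 (6.85%) lay as far below. The median log2 ratio of all was 0.53. This split depended on the scaling, since hormone transcripts took 9.34% of UMIs in gated barcodes and 27.5% in the others. On totals without hormone genes the median was 0.19 and the counts were 1411 and 1088 of 9769 genes. With edgeR TMM factors, which moved the median by -0.53, they were 927 and 1217 of 9114. As the mean of per-barcode CPM they were 2403 and 1315 of 9624. Against the other hormone gates alone they were 4102 and 159 of 8476, with a median of 0.97, so that a typical gene lies near 0.97 there. Gene lists are therefore read beside the median of all genes and beside the TMM counts.

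Among receptors of corticotroph regulators, 8 of 30 were measured, 6 were at least 2-fold higher and 1 was lower, with a median of 1.80 (5 of 9 higher and 2 lower with TMM). Beside CRHR1 these were IL6R, the interleukin-6 receptor (173 and 10.4 CPM; 4.05, 3.78 to 4.31), its signalling partner IL6ST (1.43), and EGFR, the epidermal growth factor receptor (92.5 and 12.8 CPM; 2.86). The glucocorticoid receptor NR3C1 was at 135 and 39.7 CPM (1.77, 1.47 to 2.05), and the mineralocorticoid receptor NR3C2 at 59.0 and 16.6 CPM (1.83, 1.37 to 2.26). DRD2 was the lower gene (-2.05), and LIFR, the receptor of leukaemia inhibitory factor, was at -0.46. The somatostatin receptors SSTR1, SSTR2, SSTR3 and SSTR5 had 0 UMIs in the gate, where the other barcodes had 288, 232, 217 and 329, and were too low to be measured. The filter for measured genes takes the mean of both groups, so a gene high in the gate alone, such as CRHR1, can pass it. With no filter beyond 1 count, 8 of 29 list genes were higher and 4 lower. The list median was then 0.0, beside 0.07 for all genes, with genes set to 0 where a count of 0 gave no direction.

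In the list of corticotroph transcription factors, 8 of 21 measured genes were at least 2-fold higher and 5 lower, with a median of 0.55 that turned to -0.22 with TMM (4 higher and 8 lower of 22) and -0.03 without hormone genes. TBX19 led it (6.16). Also higher were NEUROD1, a basic helix-loop-helix factor of early corticotrophs (26.8 and 3.58 CPM; 2.91, 2.18 to 3.55), and INSM1, a zinc-finger factor of endocrine cells (299 and 97.8 CPM; 1.61). NEUROD1 was not particular to the gate: after thinning to 2000 UMIs it was found in 2.73% of gated and 2.37% of LHB-gated barcodes. NR3C1 (1.77), TLE1 (1.43), NR4A2 (1.18) and STAT3 (1.07) were higher too; STAT3 was at 0.79 without the 27 barcodes. PITX1, a homeobox factor of the whole gland, was at 304 and 161 CPM (0.91) and NR4A1, a nuclear receptor that CRH induces, at 298 and 288 CPM (0.05). HES6 (-1.98), NR4A3 (-1.57), SOX4 (-1.34) and NEUROD4 (-1.10) were lower; without the 27 barcodes NR4A3 was at -2.28, SOX4 at -2.21 and NEUROD4 at -3.17.

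Genes of prohormone processing and secretory granules were divided. Of 28 measured, 14 were at least 2-fold higher and 5 lower (median 0.95; 9 and 9 of 27 with TMM). PCSK1, the complexin gene CPLX2 (3.82) and the vesicle GTPase gene RAB3B (142 and 19.4 CPM; 2.87) stood highest. SCG5, a chaperone of convertases, was found in 98.7% of gated and 74.9% of other barcodes, at 3949 and 1355 CPM (1.54, 1.49 to 1.60), and the convertase inhibitor gene PCSK1N was at 2017 and 822 CPM (1.29). The granins CHGA (510 and 863 CPM; -0.76) and SCG2 (711 and 1478 CPM; -1.06, or -0.84 without the 27 barcodes) were on the lower side in summed level. Both were nevertheless found in a larger share of gated barcodes. Without thinning, CHGA was found in 70.4% of gated and 41.1% of other barcodes, and SCG2 in 65.1% and 44.3%. RESP18, a granule protein gene, had 1 UMI (-4.42, -9.73 to -1.95), which lay in 1 of the 27 barcodes.

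The CRH and cAMP signalling list had 12 of 24 measured genes at least 2-fold higher and 2 lower (median 1.03; 6 and 2 of 23 with TMM). With no filter beyond 1 count the numbers were 13 and 5 of 36, with a median of 0.30 beside 0.07 for all genes. GNAS, the stimulatory G protein alpha subunit that couples CRHR1 to adenylyl cyclase, was at 7117 and 1535 CPM (2.21, 2.17 to 2.25). It was found in nearly all barcodes of both groups, 98.7% of gated and 95.7% of others. The cyclase gene ADCY2 was at 247 and 19.5 CPM (3.66, 3.44 to 3.88). The phosphodiesterase genes PDE8B (3.16), PDE10A (2.83) and PDE8A (2.42) were also higher, while PDE1C (-1.97) and the kinase anchor gene AKAP12 (-1.77) were lower. Against the other hormone gates alone they were at 0.999 and 1.02, near the median of all genes there, and without the 27 barcodes at -3.78 and -3.26. The deubiquitinase gene USP8, known from corticotroph tumours, was at 0.43, below the median of all genes.

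Glucocorticoid feedback genes had 7 of 22 measured genes at least 2-fold higher and 4 lower, with a median of 0.09 that was -0.42 with TMM (6 higher and 5 lower). FKBP5, a co-chaperone of the receptor that glucocorticoids induce, was at 192 and 64.6 CPM (1.57, 1.32 to 1.81). The induced genes PER1 (186 and 40.9 CPM; 2.19), ZBTB16 (169 and 30.3 CPM; 2.48) and KLF15 (2.73) were higher too. SGK1 (-1.72), DUSP1 (-1.31), ANXA1 (-1.59) and HSD11B1, the enzyme that regenerates active glucocorticoid (20.1 and 85.3 CPM; -2.08), were lower. Without the 27 barcodes these 4 genes were farther down, at -5.01, -2.50, -4.25 and -5.48. Of 22 list genes 6 were lower there, beside 903 of 8993 genes in all. Against the other hormone gates alone the same 4 genes were at 0.81, 0.35, 1.47 and 1.06, where the median of all genes was 0.97. That comparison had 17 of 22 list genes higher and 0 lower, beside 4102 of 8476 genes higher in all.

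Most neuronal and excitability genes were higher: 20 of 24 measured genes were at least 2-fold higher and 0 lower, with a median of 1.86 (17 and 0 of 24 with TMM). With no filter beyond 1 count the numbers were 24 and 2 of 35, with a median of 1.72. The potassium channel gene KCNK2 was at 75.1 and 2.92 CPM (4.68, 4.25 to 5.09), and the growth cone gene GAP43 at 107 and 4.48 CPM (4.58). The L-type calcium channel gene CACNA1C (48.3 and 5.48 CPM; 3.14, 2.61 to 3.62) was among them. UCHL1, a deubiquitinase of neurons and endocrine cells, was at 1431 and 216 CPM (2.73) and was found in 92.1% and 39.0% of barcodes.

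**Figure D4:**
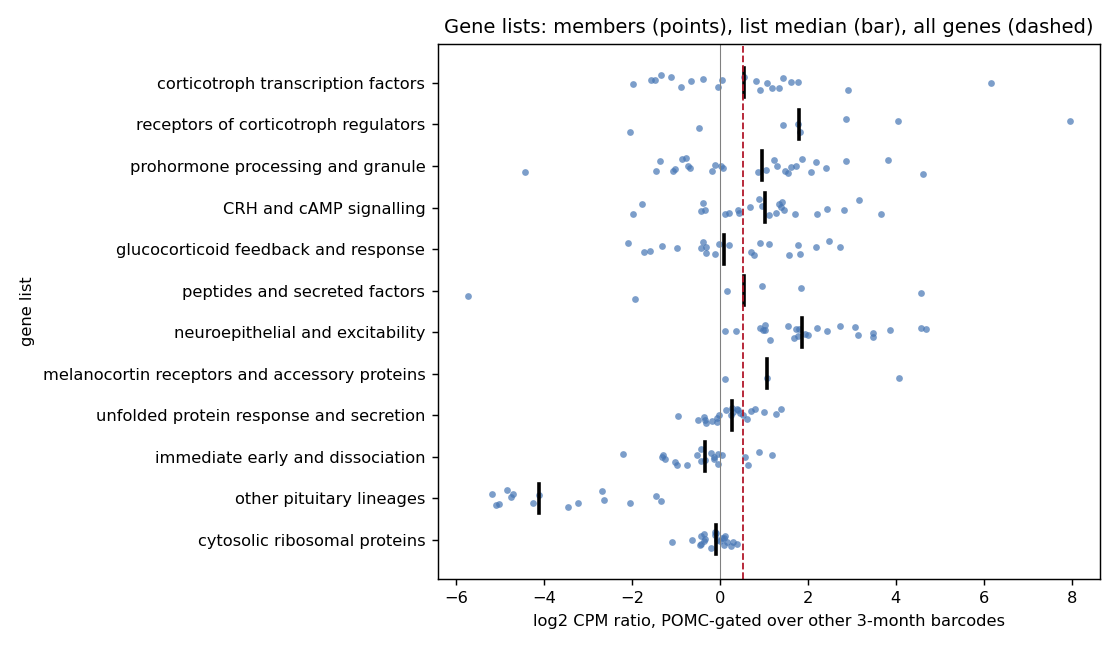
Log2 CPM ratio of POMC-gated over other 3-month barcodes (x axis) for the measured members of each gene list (rows; points are genes, black bars list medians), with the median of all measured genes as a dashed line at 0.53. Neuronal and excitability genes have a median of 1.86 and other pituitary lineages one of -4.12. The latter list includes PRL and LHB, which the rule limits. Cytosolic ribosomal proteins lie around -0.10.

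Among peptides and secreted factors, 6 of 43 genes were measured, with NPPC and TAC1 higher and GAL and INHBB (-1.92, 0.40 against the hormone gates alone and -3.28 without the 27 barcodes) lower. Their median of 0.55 was -0.35 with TMM. TAC1, the precursor of substance P, was at 40.2 and 11.3 CPM (1.83), but its 30 UMIs lay in 1.97% of gated barcodes. Of the melanocortin receptors and their accessory proteins 3 of 10 were measured. MRAP2, an accessory protein, was at 51.0 and 3.04 CPM (4.07, 3.55 to 4.55) and PRCP at 1.07, and the receptor genes MC1R to MC5R had 0 UMIs in the gate. Unfolded protein response genes had 2 of 23 higher, SEL1L (1.38) and DNAJB9 (1.27), and 0 lower (median 0.28; with TMM -0.24, 0 higher and 2 lower). Immediate early genes, which dissociation also induces, had 1 of 21 higher, NR4A2, and 5 lower, led by IER3 (-2.20), with a median of -0.33. Without the 27 barcodes 2 were higher and 8 lower, beside 2603 and 903 of 8993 genes in all. The list median was then -0.54, and IER3 was at -4.06. Against the hormone gates alone the median was 0.89, near the 0.97 of all genes, with 10 higher and 0 lower. With TMM the counts were 0 and 8. Cytosolic ribosomal protein genes had 0 of 22 higher and 1 lower, RPLP0 (-1.08). Genes of other pituitary lineages had all 15 measured members lower, but the list includes PRL and LHB, which the rule limits. Part of that count and of the list median therefore describes the choice of barcodes. SOX2, at -1.34, was at 1.81 against the hormone gates alone and at -4.22 without the 27 barcodes.

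Gated barcodes differed among themselves in PCSK1 and the granins SCG2 and CHGB, whereas TBX19 and CRHR1 were nearly level unless the 27 barcodes were left out. The 69 barcodes with POMC at 5% or more were set against the 83 under 5%, on CPM without hormone genes, for 3888 genes with a mean of at least 50 CPM; 107 (2.75%) were at least 2-fold higher and 272 (7.0%) as far below in the former. The genes named here were chosen after their values were seen. PCSK1 was at 348 CPM in the POMC-rich and 107 CPM in the POMC-poor barcodes (log2 ratio 1.70, 1.14 to 2.29), found in 32 and 13 barcodes. SCG2 was at 1136 and 385 CPM (1.56, 1.27 to 1.86) and the granin gene CHGB at 827 and 284 CPM (1.54, 1.20 to 1.90). SEC11C, of the signal peptidase (1.42), the endoplasmic reticulum foldase gene FKBP11 (1.28), the calcineurin regulator gene RCAN1 (2.06), ESM1 (2.68) and RHOXF1 (2.70, 2.08 to 3.38) were higher as well.

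TBX19, CRHR1 and NR3C1 were at about the same level on both sides, with log2 ratios of -0.03 (-0.45 to 0.39), 0.03 (-0.63 to 0.68) and 0.02 (-0.57 to 0.61). NPPC was at 991 and 1221 CPM (-0.30, -0.51 to -0.09). The genes highest in POMC-poor barcodes included CD74, C1QA and HES1, which belong to macrophages and stem cells: CD74 had 128 UMIs in 10 POMC-poor barcodes and 4 in the others. Without the 27 barcodes, which were chosen by markers that include C1QA, 63 POMC-poor and 62 POMC-rich barcodes were left. CD74, which that choice did not use, then had 6 and 2 UMIs (-2.59, -5.93 to -0.11). There PCSK1 was at 2.59 (1.62 to 3.76), SCG2 at 1.57, CHGB at 1.18, ESM1 at 3.52 and RHOXF1 at 1.90, while TBX19 was at -0.73 (-1.20 to -0.25), CRHR1 at -0.60 (-1.31 to 0.12) and NPPC at -0.88 (-1.11 to -0.65).

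In the 6-month library, 10 kept barcodes had POMC at 1% or more, 1 was over the PRL limit, and the 9 that remained were 0.0679% of 13253 kept barcodes (0.0311 to 0.129). They held between 1014 and 7375 UMIs and 1652 POMC UMIs in all. TBX19 had 5 UMIs in 2 of them, CRHR1 1 UMI, PCSK1 3 UMIs in 1, NPPC 5 UMIs in 3, AVPR1B 0 and PAX7 0. The 4 with POMC above 10%, at 19.9%, 17.8%, 10.6% and 10.1%, held no UMI of TBX19, CRHR1 or PCSK1. MBNL3 was found in 6 of the 9, PIANP in 3 and GFRA3 in 2. Over all kept barcodes of this library TBX19 was found in 12, and the gate held 32.6% of the POMC UMIs. These numbers are too small to describe corticotrophs at 6 months.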

How the data were processed

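For each age the authors deposited a matrix of UMI counts, not normalized. The submitters' processing notes name Cell Ranger 5.0.0, whereas 5.0.1 stands in the matrix headers. Neither names a genome build or annotation. The other deposited lists hold gene identifiers with symbols, and barcodes. Of 23141 gene identifiers 22726 matched a RefSeq table of the ARS-UI_Ramb_v3.0 assembly, used to replace 439 placeholder symbols. Per the labels' protocols, anterior lobes were separated by morphology, digested with collagenase, strained and freed of red blood cells.

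Counts were summed over gated and over other kept barcodes and given as CPM of UMI totals. A gene was measured at a mean of both CPM values of at least 10, and called apart at 2-fold. Genes at 0 counts were set against a floor of 3 counts. Intervals are exact and at 95%. Endothelial-marker barcodes had at least 3 UMIs of 6 genes and lay under the limits of all gates. The genes named are the 6 markers, list members, and the 15 genes with the interval bounds farthest from 0 in each direction, for higher genes with a UMI in at least 20% of gated barcodes. The members and lists were chosen with earlier results of these data known. Scrublet was run in scanpy 1.11.5, TMM factors came from edgeR 4.0.16, and the ratio script was tested on simulated data. Alternatives were other POMC cuts and limits, doublets removed, a stricter depth filter, other scalings, another comparison group and other filters on low counts. No paired analysis applied. Single values of a few list members are not reported here. No sequences were printed, since none came with the files.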

Additional observations from a re-analysis of the deposited data

Results flagged for a closer look

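Barcodes too shallow for the depth filter also carried POMC. In the 3-month library 20 of the 2593 barcodes below 500 genes or 1000 UMIs had POMC at 1% or more within the limits on the other hormones, and 3 of them held a TBX19 UMI. In the 6-month library 7 of 1778 such barcodes did, and 0 held TBX19. They were picked up because they lie outside the barcodes described above, and they were not analysed further.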

How the results depend on the processing

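The number of gated 3-month barcodes stayed between 109 and 189 under the other cuts and filters, except 69 at a POMC cut of 5%. The count of genes at least 2-fold higher, 2345, was 927 with edgeR TMM factors, 1411 on totals without hormone genes, 4102 against the other hormone gates only, 696 at a mean CPM of at least 50 and 3774 with no filter beyond 1 count. The count of lower genes, 623, was 948 at the 5% cut, 1217 with TMM, 1088 without hormone genes, 1315 as the mean of per-barcode CPM, 159 against the hormone gates, 157 at 50 CPM and 1407 without the filter. Leaving out the 27 gated barcodes with markers of other classes, an alternative chosen after seeing the data, gave 2603 and 903 of 8993 genes. Of 1546 recomputed values for 133 single results, 1153 stayed within the counting interval, 380 moved outside it, and 13 that were at least 2-fold apart changed sign, all of them against the hormone gates only, where the median of all genes is 0.97 and DUSP1, JUN, INHBB, FOS, FOSB, SGK1 and IER3 lie below that median. These were CADPS2 (1.76), AKAP12 (1.02), PDE1C (0.999), DUSP1 (0.35), SGK1 (0.81), HSD11B1 (1.06), ANXA1 (1.47), INHBB (0.40), FOS (0.55), FOSB (0.41), JUN (0.045), IER3 (0.89) and SOX2 (1.81). The cause was not tested. No paired analysis was possible because each age has 1 library. Depth limits AVPR1B, with 8 UMIs in the gate, and PAX7, with 7.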
